A study of Mus musculus with 12 samples.

Results

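A set of 10 genes that regulate or mark epithelial to mesenchymal transition (EMT) and the lung mesenchyme was followed in the open chromatin of AT2 (alveolar type II) cells of the mouse, which line the alveoli and make surfactant. They are the transcription factors Twist1, Twist2, Snai1, Snai2, Zeb1 and Zeb2, the cytoskeletal gene Vim, the epithelial adhesion gene Cdh1, the lung mesenchyme factor Tbx4 and the growth factor receptor gene Pdgfra. The genes were chosen by name, and each is described by the peaks that overlap its body or the 10 kb on either side (its locus, GRCm38). They make up 10 of 21631 protein-coding loci, and their loci hold 50 of the 83727 regions formed when overlapping peaks of all libraries were merged.

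The study compared AT2 cells from the metastatic niche with AT2 cells from distal lung in a pair of metastasis models, asking how chromatin differs between these sites. BALB/c mice aged 6 to 8 weeks received 800000 labelled tumour cells by tail vein, either 4T1, from a mammary carcinoma, or CT26, from a colon carcinoma, both lines of BALB/c origin, and lungs were taken on day 7. The 4 groups were 4T1 niche, 4T1 distal, CT26 niche and CT26 distal, with 3 independent samples each, and every sample pooled 5 lungs and gave 50000 sorted AT2 cells for Omni-ATAC-seq. In this assay Tn5, a transposase, inserts sequencing adapters where nuclear DNA is accessible. All mice carried tumour cells, so distal lung is not tumour-free lung. The labels give neither the sort markers nor the way niche was separated from distal lung.

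Epithelial to mesenchymal transition is the loss of junctions and polarity by which epithelial cells take on mesenchymal traits. Factors of the Snail, Zeb and Twist families drive it in development and in carcinoma; they bind E-box motifs, and Snail and Zeb factors repress Cdh1, the gene of E-cadherin. Vim encodes vimentin, the intermediate filament protein of mesenchymal cells. Tbx4 acts in the embryonic lung mesenchyme, and Pdgfra marks lung fibroblasts, so both are commonly read as fibroblast genes in the adult lung.

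The lists differed in length: 63722 to 66911 peaks in 4T1 niche, 56330 to 58237 in 4T1 distal, 51005 to 55529 in CT26 niche and 42067 to 50093 in CT26 distal libraries. Covered length was 49.1 to 51.9 Mb, 42.0 to 45.7 Mb, 38.2 to 44.7 Mb and 31.4 to 34.4 Mb in the same 4 groups. The lists hold no read counts, so library depth is unknown. Lengths were therefore scaled to the mean covered length of the libraries before any test. The AT2 label was checked against its markers, and all 18 AT2 loci, Sftpc, Sftpb and Abca3 among them, held a peak in every library. So did all 12 marker loci of AT1 (alveolar type I) cells, so this check does not separate the 2 cell types.

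A few promoters are shown because they stand for the ways the genes differ: one under a peak in some groups only, one under a peak in every library, and one never under a peak. The sequences are the 250 bases before the start in RefSeq (GRCm38.p6), 5′ to 3′ on the gene's strand, with any E-box in capitals. The motif searched was CANNTG, on both strands.

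Twist1 (chr12:33957421-33957670, plus strand): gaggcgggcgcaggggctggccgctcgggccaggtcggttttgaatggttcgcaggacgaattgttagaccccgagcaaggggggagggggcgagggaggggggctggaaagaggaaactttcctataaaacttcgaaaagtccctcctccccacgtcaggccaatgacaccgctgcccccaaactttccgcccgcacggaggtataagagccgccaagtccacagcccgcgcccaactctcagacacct
Snai1 (chr2:167537945-167538194, plus strand): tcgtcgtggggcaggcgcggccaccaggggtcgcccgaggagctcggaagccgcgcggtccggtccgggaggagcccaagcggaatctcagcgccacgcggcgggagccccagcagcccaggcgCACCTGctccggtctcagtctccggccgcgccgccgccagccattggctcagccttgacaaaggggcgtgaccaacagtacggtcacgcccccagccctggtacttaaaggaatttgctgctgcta
Tbx4 (chr11:85896515-85896764, plus strand): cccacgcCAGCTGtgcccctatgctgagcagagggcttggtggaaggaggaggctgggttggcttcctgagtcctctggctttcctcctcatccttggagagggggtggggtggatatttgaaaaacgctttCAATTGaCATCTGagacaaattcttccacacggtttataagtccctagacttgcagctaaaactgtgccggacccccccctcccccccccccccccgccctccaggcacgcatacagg

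A window of 300 bases (250 before and 50 after the start) was scored as under a peak where any base of it was covered. The Twist1 window lay under a peak in 3 of 3 4T1 niche and 0 of 3 4T1 distal libraries, and in 2 of 3 CT26 niche and 1 of 3 CT26 distal libraries. The windows of Snai1 and Vim, and the window of 1 of 4 Zeb2 starts, lay under a peak in all 12 libraries, as did 39.8% of the 32619 RefSeq windows. Twist2 was covered in 3 of 3 4T1 niche, 2 of 3 4T1 distal, 3 of 3 CT26 niche and 1 of 3 CT26 distal libraries. Tbx4 and Pdgfra windows were covered in none, as were 51.2% of all windows. Cdh1, Snai2 and Zeb1 had no entry in the promoter table.

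In the shown Snai1 stretch the letters CACCTG, the Snail and Zeb type of E-box, occur once, and 20.3% of all windows hold that type on either strand. Tbx4 has 3 E-boxes before its start, and the one nearest to it, CATCTG, is of the Twist type, which on either strand is found in 17.1% of windows. The letters CANNTG, present in 72.3% of windows, are not in the windows of Twist1, Twist2, Zeb2 or Vim.

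**Figure D1:**
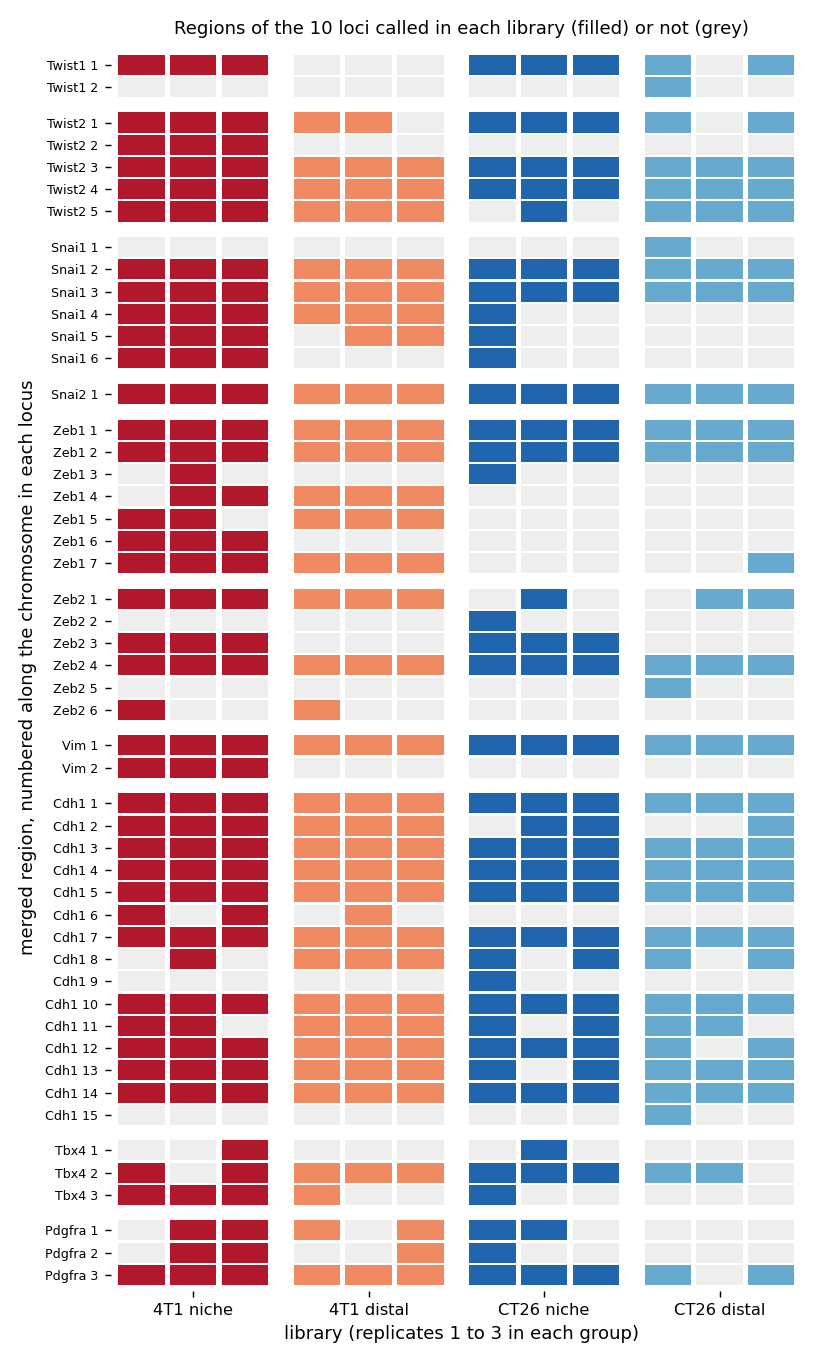
Calls of the 50 merged regions of the 10 loci (rows, numbered along each locus) in the 12 libraries (columns, 3 in each of 4T1 niche, 4T1 distal, CT26 niche and CT26 distal). A filled cell is a region overlapped by a peak of that library. 16 rows are filled across all 12 libraries, and Zeb2 region 3 is filled in the 6 niche libraries alone.

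Of the 50 regions, 39 touched a member gene and 11 lay outside it. All 12 libraries held 16 of them (32.0%, against 42.1% of all 83727 regions), and 6 were held by 1 library (12%, against 15.3%). Libraries of 4T1 niche held 38, 40 and 39 of the regions, against 33, 32 and 32 in 4T1 distal. In CT26 niche the numbers were 34, 27 and 26, against 29, 21 and 26 in CT26 distal. Within each library these regions made up 0.0507% to 0.0633% of the regions held, and niche lists were also longer (4T1 niche 0.0576%, 0.0633% and 0.0606%, against 0.0575%, 0.0564% and 0.0581% in 4T1 distal). The scaled length under peaks summed over the 10 loci was 23.9, 25.1 and 24.9 kb in 4T1 niche and 22.8, 22.5 and 23.4 kb in 4T1 distal libraries. It was 23.7, 22.8 and 21.3 kb in CT26 niche and 24.8, 20.7 and 22.5 kb in CT26 distal libraries, where the groups overlapped; the 4T1 groups did not.

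Levels are compared between genes as the percent of the locus under peaks, averaged over the 12 libraries. Cdh1 led with 9.46% ± 1.78, followed by Vim with 8.29% ± 1.12 and Snai1 with 8.18% ± 1.94 (SD, n = 12 libraries of all groups). These 3 neighbours overlap in range and are above the upper quartile of the 16823 loci tested (7.40%, median 4.42%). Twist2 had 4.12% ± 0.891, Snai2 3.15% ± 0.462 and Twist1 2.59% ± 2.32. Groups differed within these means: Twist1 had 4.44% in 4T1 niche against 0% in 4T1 distal, and 4.21% in CT26 niche against 1.73% in CT26 distal. That put Twist1 above Snai2 in 4T1 niche (3.57%) and above Twist2 in CT26 niche (3.67%). The lowest were Pdgfra with 2.16% ± 1.01, Tbx4 with 1.63% ± 1.17, Zeb1 with 1.37% ± 0.309 and Zeb2 with 1.05% ± 0.351, all under the lower quartile of 2.38%. No neighbouring pair in this order stood apart by more than its spread, except Snai1 over Twist2, where the ranges still met (5.29% to 11.8% and 2.84% to 5.55%).

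**Figure D2:**
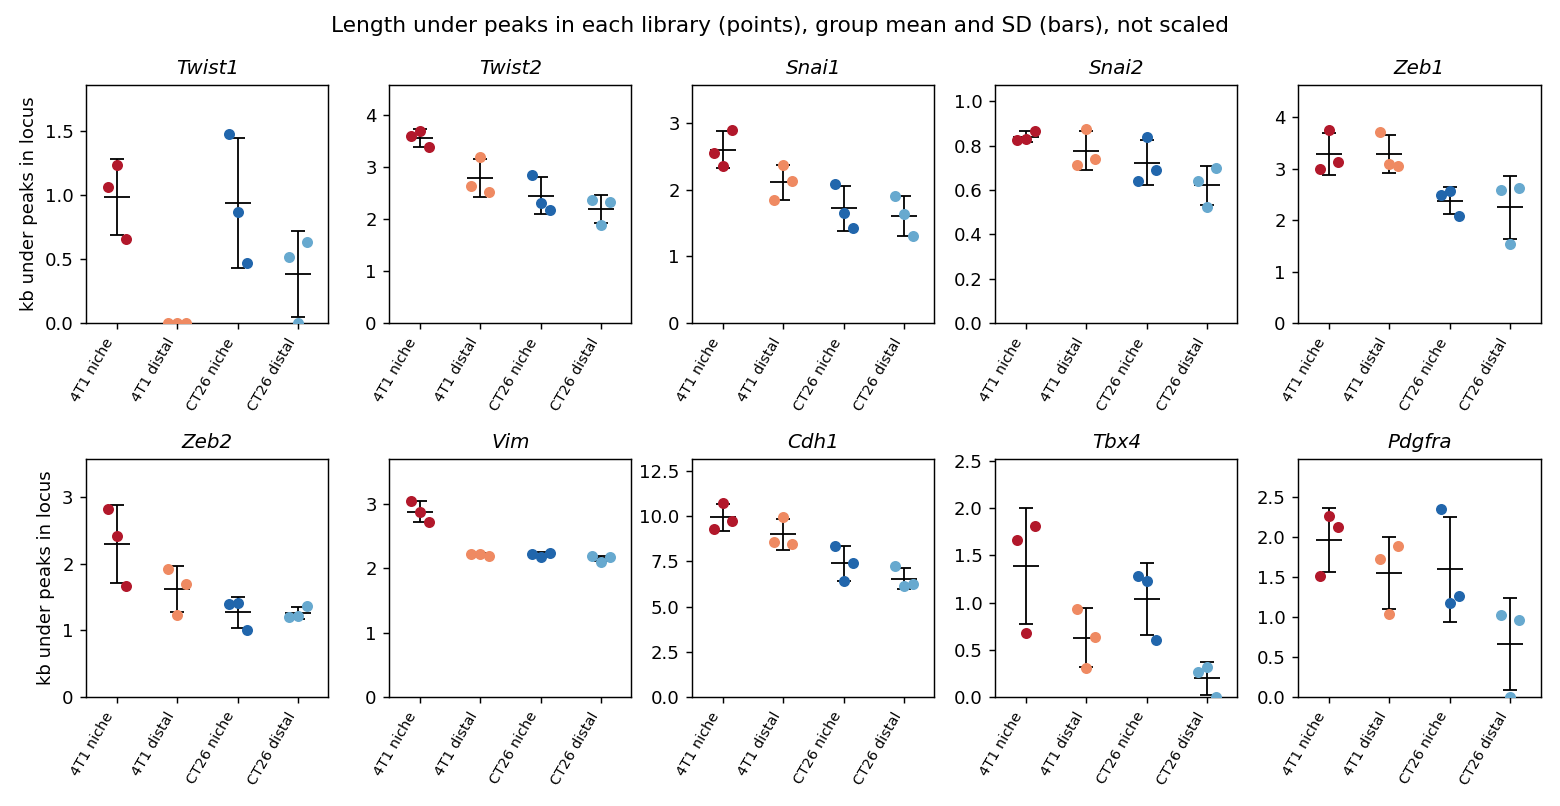
Length under peaks (kb, not scaled, each axis from 0) in the 10 loci for the 3 libraries of 4T1 niche, 4T1 distal, CT26 niche and CT26 distal; points are libraries, bars the group mean and SD. Twist1 stands at 0 in the 3 4T1 distal libraries and at 653 to 1232 bp in the 4T1 niche libraries, and Vim separates 4T1 niche from the other 3 groups.

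Twist1, a basic helix-loop-helix factor of mesoderm, was the only one of the 10 loci that passed the test between niche and distal lung, and it passed over both models together but not within either. Its locus held 1064, 1232 and 653 bp under peaks in 4T1 niche libraries, against 0 bp in each of the 3 4T1 distal libraries. In CT26 niche it held 1473, 862 and 466 bp, against 512, 0 and 635 bp in CT26 distal. All niche libraries had a peak, 4 of the 6 distal libraries had none, and in CT26 the groups overlapped. The limma adjusted p over both models was 0.0448, where 2.38% of the 16823 loci tested passed (1.5% higher in niche). Within 4T1 the adjusted p was 0.0943, and within CT26 the log2 change was 0.64 ± 0.32 (SE) with an adjusted p of 0.295. The niche effect was not shown to differ between the models (adjusted p for the difference 0.725, where 0.0594% of loci passed). The 4T1 distal group is listed with no peak, so any fitted Twist1 change that includes it depends on the 500 bp added and is not read as a fold. That group also has no spread, which can make the limma p too small. The call was lost when any one of 8 libraries was left out (limma adjusted p 0.0351 to 0.0986 over the 12 omissions). Those were all 6 4T1 libraries and CT26 niche replicates 1 and 2. It was also lost when same-numbered niche and distal libraries of a model were fitted as blocks.

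Nearly all of this signal came from 1 region of 1536 bp over the Twist1 start (chr12:33956986-33958521). It was held by 3 of 3 4T1 niche, 0 of 3 4T1 distal, 3 of 3 CT26 niche and 2 of 3 CT26 distal libraries. The peaks there were weak: their fold enrichment, as the authors' peak caller gave it, was 3.16 to 4.26, and their -log10 p stood at the 8.69th to 27.9th percentile of the list that called them. CT26 distal replicate 1 had 320 bp there and another 192 bp in a separate region 7227 bp past the gene. Under a stricter peak threshold (-log10 q of at least 5), or with lists cut to equal peak numbers, too few libraries kept a Twist1 peak for a test.

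Twist2, the paralogue of Twist1, showed no such split. It held 3597, 3697 and 3374 bp in 4T1 niche against 2633, 3198 and 2512 bp in 4T1 distal, and 2851, 2311 and 2175 bp in CT26 niche against 2367, 1888 and 2333 bp in CT26 distal. After scaling the niche and distal ranges overlapped in both models, and the log2 change over both was 0.01 ± 0.06 (SE, limma adjusted p 0.919). A pair of regions inside the gene were held by all 12 libraries. One further region in the gene body, 461 bp long (chr1:91816550-91817010) and shared with the gene model Gm46117, was called in the 3 4T1 niche libraries alone, with 286, 461 and 187 bp.

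Snai1 and Snai2, zinc finger repressors of Cdh1, had strong peaks in every library, and neither passed a test. The region over the Snai1 start (chr2:167537642-167538448) stood at the 83.7th to 96.8th percentile in all 12 lists, and the region over the lower-coordinate end of Snai2 (chr16:14705335-14706272) at the 82.4th to 93.3rd. That Snai2 region was the only one in its locus, and it covered 824, 831 and 868 bp in 4T1 niche, against 714, 878 and 740 bp in 4T1 distal libraries. In CT26 niche it covered 641, 839 and 693 bp, against 643, 526 and 698 bp in CT26 distal. The Snai1 locus held 2550, 2364 and 2898 bp in 4T1 niche against 1842, 2370 and 2125 bp in 4T1 distal. It held 2086, 1659 and 1422 bp in CT26 niche against 1904, 1631 and 1303 bp in CT26 distal. Over both models the log2 change was -0.04 ± 0.09 for Snai1 and -0.04 ± 0.08 for Snai2 (SE, limma adjusted p 0.841 and 0.761). A region 9606 bp beyond Snai1 (chr2:167552420-167553385), which overlaps Gm11476 and reaches past the window, was called in all 3 4T1 niche libraries (931, 401 and 885 bp over the whole region), in no 4T1 distal library and in CT26 niche replicate 1 (263 bp).

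Zeb1 and Zeb2 are large zinc finger and homeodomain repressors, and their long loci had the lowest mean share under peaks over all libraries. In CT26 distal Tbx4 (0.391%) was below both Zeb1 (1.10%) and Zeb2 (0.815%), and in 4T1 distal Twist1 was at 0. Zeb1 held 2984, 3744 and 3132 bp in 4T1 niche against 3717, 3095 and 3047 bp in 4T1 distal, and 2480, 2575 and 2077 bp in CT26 niche against 2585, 1540 and 2622 bp in CT26 distal. The groups overlapped, and the log2 change over both models was -0.16 ± 0.10 (SE, limma adjusted p 0.345). Zeb1 had 2 regions held by all libraries, one of them over its lower-coordinate end and shared with Gm10125, and 3 gene-body regions that 5 or 7 libraries held, nearly all of them 4T1. A 376 bp region in its body (chr18:5740397-5740772) was called in the 3 4T1 niche libraries alone, with 264, 376 and 238 bp.

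Zeb2 gave the one member region that separated niche from distal lung in both models. It lies in the gene body (chr2:45019443-45020384, 942 bp) and covered 574, 667 and 670 bp in 4T1 niche and 305, 302 and 220 bp in CT26 niche libraries, against 0 bp in all 6 distal libraries. It is 1 of 82 such regions among the 83727 (0.0979%). Its peaks were weak, at the 0.611th to 31.6th percentile of the lists that called them, and neither the stricter threshold nor equal peak numbers kept the pattern. The whole Zeb2 locus did not follow it: 2822, 2408 and 1668 bp in 4T1 niche against 1918, 1232 and 1699 bp in 4T1 distal, and 1395, 1408 and 998 bp in CT26 niche against 1193, 1214 and 1356 bp in CT26 distal. The log2 change over both models was 0.01 ± 0.11 (SE, limma adjusted p 0.970). Another Zeb2 region, over 1 of the 4 annotated starts, was held by all 12 libraries.

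**Figure D3:**
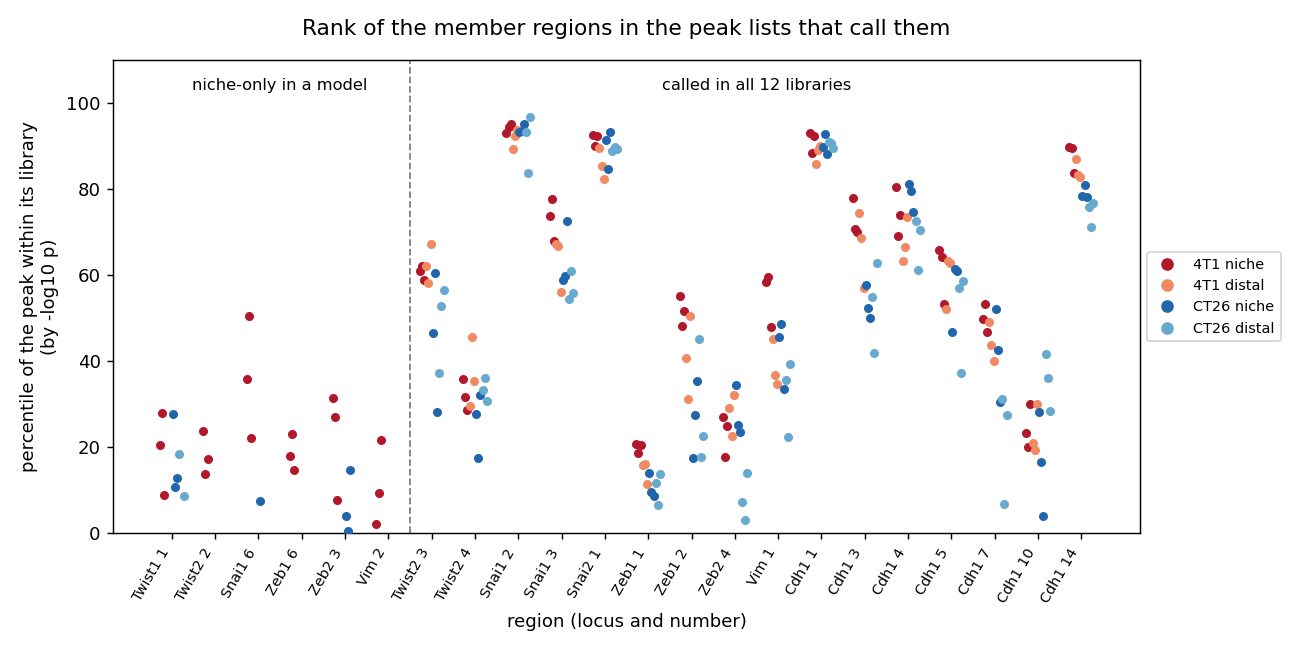
Percentile of the peak, by the deposited -log10 p within its own library (0 weakest, 100 strongest), for the 6 member regions that are niche-only in a model (left) and the 16 held by all 12 libraries (right); each point is a library that called the region. The niche-only regions stay at or under 50.4, and the regions over the Snai1 start and the lower-coordinate ends of Snai2 and Cdh1 lie between 82.4 and 96.8.

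Niche-only here means held by the 3 niche libraries of a model and by none of its distal libraries. In 4T1 this was so for 6 of the 44 member regions held there (background 2.72% of 79754), in the loci of Twist1, Twist2, Snai1, Zeb1, Zeb2 and Vim. In CT26 it was so for 1 of 43 (background 1.96% of 66372), the Zeb2 region. Distal-only regions numbered 0 in both models (background 0.15% in 4T1 and 0.172% in CT26). The 6 regions ranked low in the lists that called them, between the 0.611th and 50.4th percentile. None of them was niche-only among the same number of peaks from each library or at the stricter threshold. Niche lists were longer than distal lists in both models, and the part of list length in these calls was not tested beyond those settings.

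Vim values ran in opposite directions in the models once lengths were scaled, and neither change passed. Unscaled, it held 3039, 2879 and 2721 bp in 4T1 niche against 2222, 2228 and 2183 bp in 4T1 distal, and 2220, 2173 and 2240 bp in CT26 niche against 2183, 2104 and 2167 bp in CT26 distal. The values of 4T1 niche stand above those of the other 3 groups, which lie between 2104 and 2228 bp apart from 1 CT26 niche library at 2240 bp. The region over the Vim start covered 2104 to 2389 bp in all 12 libraries. The rest in 4T1 niche came from a region 277 bp past the gene end (chr2:13583103-13583901), with 794, 493 and 332 bp there and none in the other groups. After scaling, the log2 change was 0.14 ± 0.07 in 4T1 and -0.20 ± 0.07 in CT26 (SE, limma adjusted p 0.392 and 0.163), and the difference of -0.34 ± 0.10 had an adjusted p of 0.278. Without scaling the CT26 change was 0.03 (adjusted p 0.704) and the 4T1 change of 0.32 passed (adjusted p 0.0159). Between CT26 and 4T1 lungs the Vim change was 0.14 ± 0.05 with scaling (SE, limma adjusted p 0.0610) and -0.17 without (adjusted p 0.00577). With scaling kept, it was also negative under a 50 kb flank and at the stricter peak threshold, so its sign depends on the settings.

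Cdh1, which holds epithelial cells together, had 15 regions, and its mean share under peaks was the highest of the 10 loci over all libraries, though in CT26 distal it (7.53%) and Vim (7.54%) were level. All 12 libraries held 7 of these. The region over its lower-coordinate end (chr8:106602987-106604403) stood at the 85.9th to 93.1st percentile. The locus held 9316, 10751 and 9758 bp in 4T1 niche against 8580, 9965 and 8446 bp in 4T1 distal, and 8348, 6393 and 7422 bp in CT26 niche against 7221, 6135 and 6274 bp in CT26 distal. The scaled ranges overlapped in both models, and the log2 change over both was -0.08 ± 0.06 (SE, limma adjusted p 0.413). No Cdh1 region was niche-only or distal-only in either model with all peaks and all 12 libraries. With equal peak numbers a Cdh1 region was distal-only in 4T1 (chr8:106608394-106608738) and another in CT26 (chr8:106640844-106641179).

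Tbx4 had the next lowest p after Twist1. It held 1667, 682 and 1815 bp in 4T1 niche against 934, 310 and 630 bp in 4T1 distal, and 1285, 1230 and 599 bp in CT26 niche against 267, 317 and 0 bp in CT26 distal. The CT26 groups did not overlap, and the 4T1 groups did. Over both models the log2 change was 0.83 ± 0.22 (SE), and its limma adjusted p of 0.0637 missed the threshold of 0.05. In CT26 alone it was 1.08 ± 0.31 (SE, adjusted p 0.118), and in 4T1 alone 0.57 ± 0.31 (adjusted p 0.437). Without scaling it passed over both models and within CT26 (adjusted p 0.0160 and 0.0390), and with a 50 kb flank it passed over both (0.0274). It also passed over both when same-numbered niche and distal libraries of a model were fitted as blocks. A region 9274 bp beyond the gene (chr11:85925371-85926659) held 1289, 1047 and 1066 bp in 4T1 niche against 196, 0 and 0 bp in 4T1 distal, and 1083, 0 and 0 bp in CT26 niche against none in CT26 distal, counted over the whole region, part of which lies past the window. A region in the gene (chr11:85894661-85895669), centred 1600 bp before the start whose promoter is shown above, was held by 10 of the 12 libraries. Its calls numbered 2 in 4T1 niche, 3 in 4T1 distal, 3 in CT26 niche and 2 in CT26 distal.

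Pdgfra, the receptor of platelet-derived growth factor on fibroblasts, held 1509, 2260 and 2116 bp in 4T1 niche against 1718, 1034 and 1889 bp in 4T1 distal. In CT26 niche it held 2351, 1172 and 1264 bp, against 1020, 0 and 964 bp in CT26 distal. The CT26 groups did not overlap, and the 4T1 groups did. The log2 change over both models was 0.50 ± 0.29 (SE, limma adjusted p 0.299), with 0.88 ± 0.40 in CT26 (adjusted p 0.266) and 0.12 ± 0.40 in 4T1 (adjusted p 0.923). Its main region lies in the gene (chr5:75155763-75157302) and was held by 11 libraries, the exception being CT26 distal replicate 2, which has the shortest list. A region in its upstream flank shared with Gm19583 was held by 6 libraries, none of them CT26 distal.

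**Figure D4:**
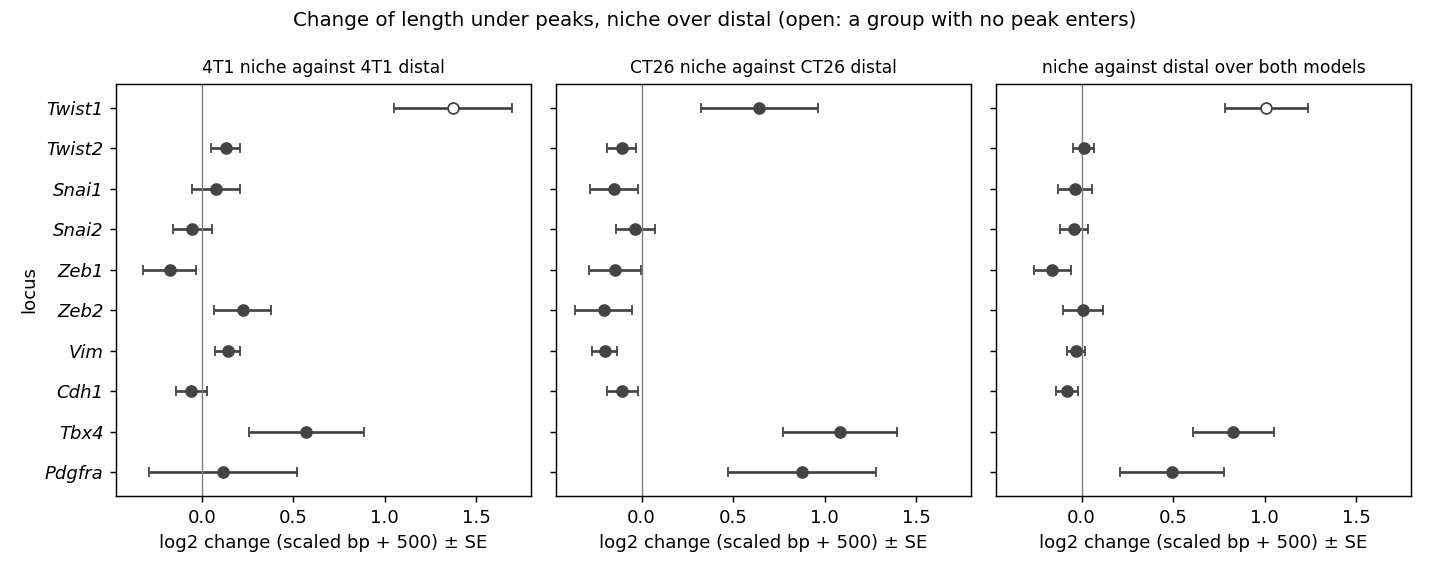
Log2 change of the scaled length under peaks plus 500 bp, niche over distal, with its standard error from limma, for the 10 loci in 4T1 (left), CT26 (middle) and over both models (right). Open points include a group with no peak (Twist1 in 4T1 distal), so their size depends on the added 500 bp. Twist1, Tbx4 and Pdgfra lie to the right of 0 in all 3 panels, and Twist1 over both models is the single point that passed.

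Across the 10 loci the median log2 change was 0.12 in 4T1, -0.11 in CT26 and -0.01 over both models, against -0.05, -0.04 and -0.04 over all loci tested. No member passed within 4T1 (background 0.624% of loci) or within CT26 (background 0.672%). At an unadjusted p under 0.05 in limma there was 1 member in 4T1 (Twist1), 2 in CT26 (Tbx4 and Vim) and 2 over both models (Twist1 and Tbx4). Of all loci 13.4%, 19% and 24.8% met that limit in the same comparisons. The members' counts in either direction are near or below that background. Higher in niche were 1, 1 and 2 members, against 6.16%, 7.73% and 9.05% of all loci. Scaled values of the groups did not overlap for 2 members higher in 4T1 niche, Twist1 and Vim (background 8.08%), and for 0 lower (background 19.5%). In CT26 they did not overlap for 2 higher in niche, Tbx4 and Pdgfra (background 6.76%), and for 1 lower, Vim (background 15.3%). Leaving lengths unscaled moved the median change of all loci to 0.12 in 4T1, 0.18 in CT26 and 0.15 over both models. The loci called over both models then split as 3956 higher and 25 lower in niche, against 252 and 149 with scaling, and in CT26 as 2011 and 16, against 88 and 25. CT26 and 4T1 lungs differed at 24.1% of loci, but limma called 0 of the 10 members there (1 at an unadjusted p under 0.05, Vim; background 38.4%). Without scaling 6 of the 10 members were called, and with the same number of peaks per library 94 of 16060 loci were called and no member. Model and any handling of the separate experiments cannot be told apart there, and that count turned from 3229 higher and 822 lower in CT26 to 21 and 7788 without scaling.

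Genes around the 10 were examined as lists. Of 32 other EMT and TGF-beta pathway genes, among them Tgfbr2, Smad3, Fn1, Cdh2 and Grhl2, all were tested with limma. Between niche and distal lung 0 passed in 4T1, in CT26 or over both models. At an unadjusted p under 0.05 there were 4, 5 and 7, near the shares of all loci in either direction given above. Higher in niche at that limit were 3, 3 and 6, against 6.16%, 7.73% and 9.05% of all loci. The median log2 change of the list over both models was -0.01, against -0.04 over all loci. Of 25 epithelial junction genes, Cdh1 included, 0 passed in those 3 comparisons, with a median of -0.04 over both models. Unadjusted there were 2, 6 and 6, likewise near the shares in either direction, and 0, 3 and 1 of these were higher in niche. Of 22 lung mesenchyme factors, Tbx4 included, 19 could be tested. At an unadjusted p under 0.05 in limma there were 4 in 4T1, 6 in CT26 and 6 over both models. Higher in niche were 3, 4 and 5 of them, against 6.16%, 7.73% and 9.05% of all loci. Tshz3 alone passed, and it fell over both models by 0.21 on the log2 scale (SE 0.05, limma adjusted p 0.0463). Without scaling the Tshz3 value was -0.01, and with the same number of peaks per library it was -1.24 (limma adjusted p 1.69e-05). Tshz3 lengths by group are not given for that setting. Groups left with no peak can make the size depend on the 500 bp added and the p too small. The value is therefore not read as a fold. With all peaks the unscaled group means of Tshz3 were 1971 to 2185 bp. The median change of the mesenchyme factors over both models was 0.14, and Fgf10 and Hand2 held no peak in any library. Between CT26 and 4T1 lungs limma called 6 of the 32 EMT and TGF-beta genes (18.8%), 7 of the 25 junction genes (28%) and 3 of the 19 mesenchyme factors (15.8%), against 24.1% of all loci. Of these genes Tshz3 alone passed with the same number of peaks per library, under the limit given for it above. Smad3, the TGF-beta signal transducer, was lower by a log2 change of -0.31 ± 0.06 (SE, limma adjusted p 0.00976; 0.209 with equal peak numbers). Gli2 among the mesenchyme factors, and Pard3, Ctnna1 and Krt18 in the junction list, were lower in CT26 too. With equal peak numbers Pard3 and Ctnna1 had -0.12 and -0.06 and Gli2 and Krt18 turned to 0.21 and 0.11, and none of these 4 passed. Esrp1 and Esrp2, splicing factors of epithelial cells, were higher by 0.17 and 0.26 (adjusted p 0.0495 and 0.0137) with scaling and had -0.17 and -0.08 without it. Id1, Id3, Skil, Tshz3, Dsp, Marveld3, Cldn7 and Epcam were likewise higher with scaling and below 0 without it (Tshz3 1.24 with equal peak numbers, adjusted p 2.11e-05), while Meox2 was at 0.41 with scaling (adjusted p 0.00918) and 0.14 without (adjusted p 0.0678).

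Sorted AT2 cells could carry other lung cells or tumour cells. In bulk libraries a change in the cells present and a change within the cells cannot be told apart. Fibroblast markers were therefore measured in the same way. Of 19 such genes, Pdgfra included, 15 could be tested; Dcn, Lum and Thy1 held no peak in any of the 12 libraries, and Col3a1 held one in a single library. Scaled length summed over the list was 20.6 to 24.9 kb in 4T1 niche against 17.99 to 20.8 kb in 4T1 distal, and 21.5 to 22.2 kb in CT26 niche against 17.4 to 20.5 kb in CT26 distal. The ranges met in 4T1 and were apart in CT26. In limma 0 of the 15 passed between niche and distal lung in 4T1, in CT26 or over both models (3, 1 and 5 at an unadjusted p under 0.05, all higher in niche, where 6.16%, 7.73% and 9.05% of all loci were higher at that limit), with a median log2 change over both of 0.30. The groups did not overlap for 5 of 15 higher in 4T1 niche and 3 of 15 higher in CT26 niche, at the backgrounds given above. Col1a1 held peaks in every library, with 3217 to 3463 bp in 4T1 niche, 2874 to 3174 bp in 4T1 distal, 3046 to 4132 bp in CT26 niche and 2671 to 2715 bp in CT26 distal, all unscaled. Its scaled log2 change was -0.06 in 4T1, 0.05 in CT26 and 0.00 over both models. Tcf21, a factor of lung lipofibroblasts, had 223 to 319 bp in 4T1 niche and none in 4T1 distal, and Dpt 392 to 617 bp in 4T1 niche and 0 to 312 bp in 4T1 distal, unscaled, and neither passed (adjusted p 0.315 and 0.408). Other genes of the list were level or lower in niche after scaling, among them Itga8 with -0.03 in 4T1 and Pdgfrl and Pi16 with -0.23 and -0.18 in CT26. These genes were chosen after their values were seen. The mean summed level of the list was higher in the niche group of each model, as were the means of Twist1 and Tbx4. Pdgfra was higher too, but it is in the list, so its rise is part of that sum. Its scaled means were 1634 bp in CT26 niche and 818 bp in CT26 distal, and the sum without it was not computed. The part of fibroblasts in the Twist1, Tbx4 and Pdgfra loci was not tested. Between CT26 and 4T1, Clec3b held no peak in either CT26 group and 371 to 1979 bp in 4T1 (limma adjusted p 0.00401). The CT26 groups thus have no spread for Clec3b, which can make that p too small. With equal peak numbers too few libraries kept a Clec3b peak for a test. Scara5 was lower in CT26 (limma adjusted p 0.00918, and 0.207 with equal peak numbers). Col1a1 was higher with scaling (0.25) but not without it (-0.07).

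**Figure D5:**
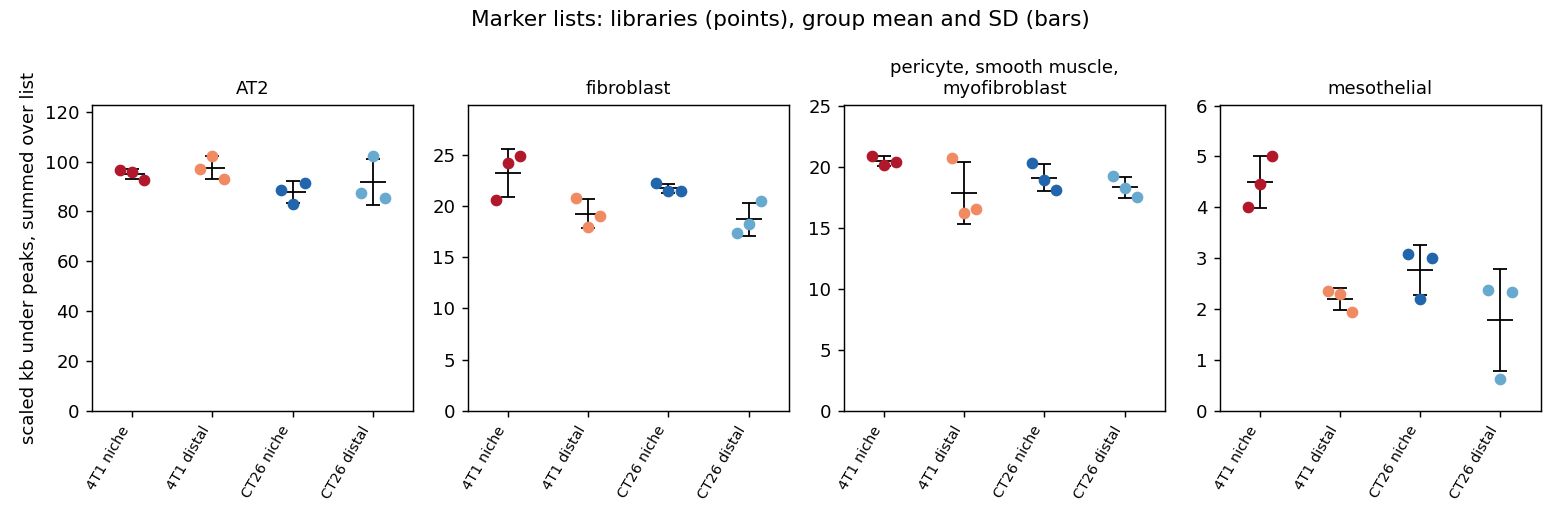
Scaled length under peaks (kb, each axis from 0) summed over marker genes of AT2 cells, fibroblasts, pericytes with smooth muscle and myofibroblasts, and mesothelium, in the 3 libraries of 4T1 niche, 4T1 distal, CT26 niche and CT26 distal (points), with group mean and SD. Mesothelial sums are 4.01 to 5.02 kb in 4T1 niche against 1.95 to 2.35 kb in 4T1 distal, and AT2 sums overlap between niche and distal lung.

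Markers of other cell types also differed in part. Mesothelial markers summed to 4.01 to 5.02 kb in 4T1 niche against 1.95 to 2.35 kb in 4T1 distal, and to 2.19 to 3.08 kb in CT26 niche against 0.631 to 2.37 kb in CT26 distal. Msln, the mesothelial antigen, rose in 4T1 (1072 to 1179 bp in niche, none in distal, limma adjusted p 0.0108) and over both models (0.0203). Both distal groups are at 0 for Msln and have no spread, which can make the limma p too small. It held a peak in 4 of the 12 libraries, and with equal peak numbers too few kept one for a test. Wt1 had 1130 to 1821 bp in 4T1 niche against 0 to 540 bp in 4T1 distal and an adjusted p of 0.0620 over both. Of 15 pericyte, smooth muscle and myofibroblast genes, 12 were tested and 0 passed between niche and distal lung in limma. At an unadjusted p under 0.05 there were 1 in 4T1, 2 in CT26 and 4 over both models, all higher in niche. Of all loci 6.16%, 7.73% and 9.05% were higher at that limit. Postn and Aspn held no peak, and Cspg4 was lower in CT26 than in 4T1 (limma adjusted p 0.0497, and 0.662 with equal peak numbers). Pecam1, of endothelium, and Pdpn, of AT1 cells, rose over both models (limma adjusted p 0.0433 and 0.0197). Sftpb, a surfactant gene, fell (0.0249, and 0.172 without scaling). Each was the only gene of its list to pass over both models, where 2.38% of all loci passed. The change over both was positive for 6 of 11 endothelial, 3 of 12 AT1 and 7 of 18 AT2 genes tested. Their median log2 changes were 0.13, -0.02 and -0.05, against -0.04 over all loci. With equal peak numbers Pdpn still passed (0.00284), while Pecam1 (0.0901) and Sftpb (0.111) did not. Endothelial markers summed to 20.7 to 23.7 kb in 4T1 niche against 18.4 to 19.6 kb in 4T1 distal, and to 19.1 to 22.4 kb in CT26 niche against 18.97 to 19.9 kb in CT26 distal. Adgre1, Marco, Siglecf, Ccr2 and Cx3cr1 of macrophages and Cd3d, Ms4a1 and Cd8a of lymphocytes held no peak in any library. Other genes of those lists did: 4 of 12 macrophage and 6 lymphoid genes held peaks in all 12 libraries. Between niche and distal lung 0 of the 7 genes tested from each list passed in limma. Over both models 1 of each met the unadjusted limit, as did 24.8% of all loci. Itgam averaged 1829 ± 793 bp in 4T1 niche, 1734 ± 278 in 4T1 distal, 780 ± 546 in CT26 niche and 160 ± 277 in CT26 distal (SD, n = 3). Cd3e averaged 1667 ± 219, 1745 ± 585, 212 ± 367 and 0 bp in those groups, and Lck 2679 ± 42, 2545 ± 52.9, 2460 ± 250 and 2678 ± 286 bp. Genes of mammary epithelium, the origin of 4T1, summed to 18.3 to 19.2 kb in 4T1 niche against 17.4 to 20.6 kb in 4T1 distal. Genes of intestinal epithelium, the origin of CT26, summed to 5.54 to 7.99 kb in CT26 niche against 5.71 to 7.84 kb in CT26 distal. Whether the lines keep these genes open is not known from these data. The part of all these cells, tumour cells included, in the Twist1 result was not tested.

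The loci whose scaled lengths ran most like each member over the 12 libraries were sought on other chromosomes or over 1 Mb away. The measure is Pearson's r of log2 values; libraries share groups and list length, so it is a description. For Twist1 these were Dlg2, Col11a1 and Kirrel3 (r 0.864 to 0.921), and for Twist2 Klk4, Cys1 and Gpr31b (0.835 to 0.867). Snai1 ran most like Itga11, Yars and Chd2 (0.857 to 0.883), and Snai2 like Acsf2, Ankib1 and Slc25a29 (0.865 to 0.897). Zeb1 paired with Lpin1, Dusp1 and Lrp2bp (0.872 to 0.887), and Zeb2 with Il17c, Cyba and Tcim (0.818 to 0.876). Vim was nearest to Nat8f7, Dctpp1 and Mfhas1 (0.918 to 0.941) and Cdh1 to Atxn7, Septin12 and Ccdc141 (0.806 to 0.833). Tbx4 was nearest to Bdkrb2, Pyy and Sp100 (0.892 to 0.910), and Pdgfra to Hmx3, Spon2 and Ldlrad2 (0.918 to 0.922). No member was among the 3 nearest loci of another.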

How the data were processed

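The authors deposited 1 list of broad peaks per library in GRCm38 coordinates; the submitters' processing notes name MACS2 and bedtools without settings, and no source used here names the aligner. From the deposited lists came each peak's start and end, its fold enrichment (a ratio to local background), and its -log10 p and q; the deposited score column was not used. Lists hold no read counts, so no counting interval was computed; p-values measure the spread between pooled samples.

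Length under peaks was summed over each of 21631 RefSeq protein-coding genes with 10 kb on each side. Loci called in 3 or more libraries, 16823 in number, entered limma 3.58.1 (R 4.3.3): scaled length plus 500 bp on a log2 scale, 4 group means, eBayes with trend, 8 residual degrees of freedom, Benjamini-Hochberg adjustment over all loci tested, threshold 0.05. The fit was tested on simulated data. Regions merge peaks that overlap by at least 1 bp. Members, lists and alternatives were chosen with earlier results of these data known. Named genes are the 10 members, list genes that passed, the 3 most similar loci of each member, and genes sharing a region with one; Tcf21, Dpt, Itga8, Pdgfrl, Pi16, Wt1 and the genes at 0 were added after their values were seen. Neighbouring loci share regions, and the gene table gives no strand, so starts without a promoter entry are called lower-coordinate ends.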

Additional observations from a re-analysis of the deposited data

Results flagged for a closer look

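Vim stood out because its scaled values did not overlap between niche and distal lung in either model and ran in opposite directions. Of all loci tested, 8.08% did not overlap and were higher in 4T1 niche, and 15.3% did not overlap and were lower in CT26 niche. Niche libraries had 2339 to 2471 scaled bp in 4T1, against 2058 to 2195 in 4T1 distal, and 2095 to 2463 in CT26, against 2655 to 2831 in CT26 distal. The niche effect in CT26 minus that in 4T1 was -0.34 ± 0.10 on the log2 scale (SE), with a limma p of 0.00427 that did not pass after adjustment over all loci (0.278). Vim was flagged by these same values, so that p is no separate support. Without scaling the CT26 effect turned to 0.03. At the stricter peak threshold, with scaling, the CT26 effect and the difference were both positive.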

How the results depend on the processing

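Twist1 stayed higher in niche lung over both models wherever it could be tested. Its sizes here that include 4T1 distal, which is listed at 0, depend on the 500 bp added and are no folds. The replicate block gave 1.01 with an adjusted p of 0.0942, and the same number of peaks or a -log10 q of at least 5 left no test of it. Leaving out 1 library gave Twist1 log2 changes of 0.80 to 1.14 over both models, 1.27 to 1.52 in 4T1 and 0.22 to 0.90 in CT26; unscaled, it passed in 4T1 (1.55, adjusted p 0.0269). Tbx4 passed over both models unscaled (0.94), with a 50 kb flank (0.38) and with the replicate block (0.83, adjusted p 0.0206), and in CT26 unscaled (1.15); in 4T1 a 2 kb flank gave -0.0653. Its range over single omissions was 0.69 to 0.98 over both models. Pdgfra ranged from 0.20 to 0.65 over both, 0.28 to 1.19 in CT26 and -0.0947 to 0.266 in 4T1.

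Small changes over both models turned sign. Unscaled, Snai1 was 0.16, Snai2 0.10, Zeb1 0.0439, Vim 0.17 and Cdh1 0.15. With equal peak numbers Twist2 was -0.55, Snai1 0.00336, Snai2 0.0265 and Zeb2 -0.32. With a 50 kb flank Twist2 was -0.16, Snai1 0.12 and Vim 0.11. At -log10 q of at least 5, Vim was 1.19. Single omissions gave -0.0156 to 0.0458 for Twist2, -0.104 to 0.0105 for Snai1, -0.0877 to 0.00416 for Snai2 and -0.0677 to 0.0823 for Zeb2. Within models, Vim unscaled was 0.32 in 4T1 and 0.0321 in CT26, and 1.65 in CT26 at the stricter threshold, where the difference of effects was 0.92. Zeb2 with equal peak numbers was -1.44 in 4T1 and 0.79 in CT26, and 0.00272 unscaled in CT26. Between CT26 and 4T1, Vim was -0.17 unscaled, -0.00371 with 50 kb and -1.07 at the stricter threshold. Lengths by group are not given for the stricter threshold or for equal peak numbers. Libraries left with no peak can make a size depend on the 500 bp added. Sizes under those settings are therefore not read as folds.

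Loci called in 4T1 (105) became 569 unscaled, 45 with equal peak numbers, 62 with 100 bp added, 171 with 50 kb, 44 at the stricter threshold, 160 without trend and 31 with the block, and 26 to 107 over single omissions. In CT26 (113) they became 2027 unscaled, 309 with 50 kb, 224 at the stricter threshold, 8 with the block and 38 to 114. Over both models (401) they became 3981, 98 with equal peak numbers, 721 with 50 kb, 192 at the stricter threshold, 81 with the block and 90 to 359. For the difference (10) they became 25 unscaled, 17 with 2 kb, 81 at the stricter threshold, 55 without trend, 1 with the block and 0 to 18. For CT26 against 4T1 (4051) they became 7809 unscaled, 94 with equal peak numbers, 6383 at the stricter threshold and 2515 to 4300. Members called unscaled were 2 in 4T1, 1 in CT26, 3 over both and 6 between CT26 and 4T1. Over both models they were 2 with 50 kb and 0 with equal peak numbers or the stricter threshold, which gave 1 between CT26 and 4T1. Over single omissions members called ran from 0 to 1 in 4T1, over both models and between CT26 and 4T1, and stayed at 0 in CT26 and for the difference.

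Niche-only member regions in 4T1 (6) became 3 when peaks had to cover 50% of a region. Of these the Zeb1 and Zeb2 regions were among the 6, and the Tbx4 region past the gene was not. At 50% cover in CT26 the region over the Twist2 start was niche-only, in place of the Zeb2 region. In 4T1 the 6 became 0 at the stricter threshold and 0 with equal peak numbers, where distal-only ones became 2, in the Twist2 and Cdh1 loci. In CT26 the 1 niche-only region became 0 at the stricter threshold and with equal peak numbers. The latter setting had 1 distal-only region in CT26, in the Cdh1 locus. The 1 niche-only in both models became 0 under those settings and at 50% cover. Single omissions gave 6 to 7 and 1 to 2 niche-only regions, 0 to 1 distal-only regions in each model, and 1 in both models. The cause was not tested. Same-numbered niche and distal libraries deviated together little (r 0.0285 to 0.0892 in 4T1, -0.0441 to 0.0175 in CT26). Pairs with different numbers had -0.0596 to 0.0246 in 4T1, below every same-numbered pair, and -0.0932 to 0.0921 in CT26. The labels do not say whether same-numbered libraries came from the same lungs, and these r cannot settle it. The replicate block is therefore given as an alternative to the main design.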

Other observations

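MicroRNAs of the miR-200 family, which target Zeb1 and Zeb2 transcripts in a mutual repression known from epithelial cells, were looked at after the values of the 10 loci were seen. Their mature strands are shown because they fall into a pair of seed classes; the seed (bases 2 to 8) is in capitals, and the sequences are from RefSeq (GRCm38.p6).

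mmu-miR-200b-3p: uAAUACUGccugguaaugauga
mmu-miR-200c-3p: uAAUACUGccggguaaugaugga
mmu-miR-429-3p: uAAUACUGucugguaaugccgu
mmu-miR-200a-3p: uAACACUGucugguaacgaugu
mmu-miR-141-3p: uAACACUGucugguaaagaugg

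The genes lie in a cluster on chromosome 4 (Mir200b, Mir200a, Mir429) and one on chromosome 6 (Mir200c, Mir141). Within 10 kb of the chromosome 4 hairpins every library had peaks, with 1839, 2253 and 1774 bp in 4T1 niche against 1816, 1769 and 1743 bp in 4T1 distal. In CT26 niche there were 1783, 1767 and 1734 bp, against 1698, 1724 and 1668 bp in CT26 distal. Around the chromosome 6 hairpins there were 2249, 2510 and 2058 bp in 4T1 niche against 2138, 2058 and 2233 bp in 4T1 distal, and 2138, 2039 and 1795 bp in CT26 niche against 1704, 2040 and 2015 bp in CT26 distal. These lengths are unscaled and were not tested.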
